A study of Mus musculus with 14 samples.

Results

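Collagens, laminins and the other core proteins of basement membranes form the gene set described here, in neural cultures of mouse embryonic stem cells with and without a pulse of GLI1. Members were all genes with a mouse symbol of the form Col, digits, a, digits, all genes whose symbol starts with Lama, Lamb or Lamc and a digit, and 11 genes given by name (Vtn, Fn1, Frem1, Frem2, Fras1, Nid1, Nid2, Hspg2, Agrn, Postn and Sparc). The rule uses names and no measured value. It took 52 of the 16060 genes in either table of the study: 31 collagen genes, 10 laminin chain genes and the 11 named genes. The table for day 5 (D5) holds 44 of them among 15108 genes, the table for day 10 (D10) holds 51 among 15744, and 43 are in both. A further 14 genes that the rule matches in RefSeq were in neither table and were not analysed here.

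Polyadenylated RNA was sequenced from 14 samples of the GLI1-FTA line, which the labels place in the A2Lox.cre background, a line built for expression of a transgene that doxycycline switches on. GLI1-induced cells received doxycycline at 500 ng/ml for 48 h, from day 3 to day 5, and were harvested either at D5 as neural progenitor cells (4 samples) or at D10, 5 days after the drug was washed out, as immature neurons (3 samples). Control cells of the same line were untreated and were harvested at D5 (4 samples) and D10 (3 samples). The drug and the transgene changed together, all samples come from 1 line, and the labels do not say whether replicates were separate cultures, so p-values measure only the spread between these samples. The deposited values are the authors' own comparisons of GLI1-induced with control samples on each day. No value per library is among them. Sequencing depth of a sample is therefore unknown, and neither SDs nor overlap between groups can be given.

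A basement membrane is a thin sheet of matrix under epithelia and around the neural tube, vessels and muscle. Laminins, trimers of an alpha, a beta and a gamma chain, polymerise on the cell surface, collagen IV forms a second network, and nidogens and the heparan sulfate proteoglycans perlecan and agrin tie the networks together. In the neural tube this sheet anchors the end feet of progenitors, and in early embryos the extraembryonic endoderm, above all parietal endoderm, is a strong producer of collagen IV, laminin and Sparc. GLI1 is the transcriptional activator at the end of the Hedgehog pathway. Gli1 itself (Entrez 14632) had a log2 fold change of 4.79 at D5 in the authors' deposited table (adjusted p = 1.12e-81), a value that does not separate transgene from endogenous transcripts, and of 0.57 at D10 (adjusted p = 0.780).

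RefSeq promoter windows of 300 bases were available for 37 of the 52 members. They are shown for the pair of collagen IV genes that share a start region, and for the member pair with the largest rises at D5. Col4a1 and Col4a2 lie head to head: on assembly GRCm38.p6 their annotated start sites are on opposite strands of chromosome 8 and 21 bases apart. The stretch that both windows cover is 73.1% G or C and runs over chr8:11312777-11312854 (plus strand). Capitals mark the 22 bases from one start site to the other.
Col4a1 and Col4a2, shared start region: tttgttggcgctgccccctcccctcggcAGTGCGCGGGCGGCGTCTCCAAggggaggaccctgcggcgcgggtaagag

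Frem1 has 2 annotated promoter windows and Vtn has 1. The windows were searched on both strands for the GLI binding sequence GACCACCCA. All 9 letters were in the window of 0 of the 37 members, against 0.247% of the 10931 genes of the D5 table that have a window. With up to 1 mismatch, 3 of 37 members held it (8.11%: Col11a1, Frem1 and Postn), against 8.56% of those genes. Capitals below mark the closest word of each window, and a substitution gives the motif's base, its position from the motif's 5′ end and the window's base. In the Frem1 windows the closest words carry C7A, at chr4:83021053-83021352 (minus strand), and C6A, at chr4:83052117-83052416 (minus strand). In the Vtn window, chr11:78498870-78499169 (plus strand), the closest word carries C4A and C7A.
Frem1, first window: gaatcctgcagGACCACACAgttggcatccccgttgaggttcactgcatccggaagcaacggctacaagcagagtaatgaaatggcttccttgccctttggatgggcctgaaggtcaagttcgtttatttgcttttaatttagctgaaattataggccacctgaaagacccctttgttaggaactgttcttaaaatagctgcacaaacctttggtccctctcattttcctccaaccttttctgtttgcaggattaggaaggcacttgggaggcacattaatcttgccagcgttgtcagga
Frem1, second window: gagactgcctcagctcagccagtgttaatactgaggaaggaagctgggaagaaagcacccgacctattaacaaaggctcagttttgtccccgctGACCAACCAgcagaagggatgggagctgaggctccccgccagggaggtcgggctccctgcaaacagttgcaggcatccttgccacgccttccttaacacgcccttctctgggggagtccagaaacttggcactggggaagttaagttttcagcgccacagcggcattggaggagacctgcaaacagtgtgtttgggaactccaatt
Vtn: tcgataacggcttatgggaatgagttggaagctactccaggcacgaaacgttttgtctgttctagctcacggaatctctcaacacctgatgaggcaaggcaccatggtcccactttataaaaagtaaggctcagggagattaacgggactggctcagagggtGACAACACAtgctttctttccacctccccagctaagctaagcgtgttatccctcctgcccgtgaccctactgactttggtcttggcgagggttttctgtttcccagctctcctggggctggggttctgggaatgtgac
These matches are descriptions of the letters in these windows. Col11a1, with the same number of mismatches as Frem1, had a log2 fold change of 0.00097 at D5 in the authors' deposited table.

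Levels are given in CPM, read counts scaled to a fixed library total. The authors' average log2 CPM runs over all libraries of a day. Dividing its linear value by the length of the longest GENCODE M21 transcript gives a level per kb. It compares genes only approximately, because the deposited values do not show which transcripts these cells make. At D5 the members held 0.951% of the summed average CPM and at D10 2.73%. The tables of the days were normalised separately, so these shares stand side by side and were not tested. Per kb, Sparc (394 CPM per kb), Col4a1 (337) and Col4a2 (172) had the highest average levels at D5, followed by Lamb1 (146), Lamc1 (143) and Lama1 (129). At D10 the same 6 genes led, with Sparc at 1306 and Col4a1 at 1211 CPM per kb. Perlecan (Hspg2), agrin (Agrn) and the nidogens Nid1 and Nid2 lay between 20.6 and 31.7 CPM per kb at D5. The fibrillar collagens stood lower, with Col2a1, the main collagen of notochord and cartilage, at 15.2 CPM per kb and Col1a1, Col1a2 and Col3a1, the collagens of connective tissue, between 0.410 and 0.447 at D5.

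**Figure D1:**
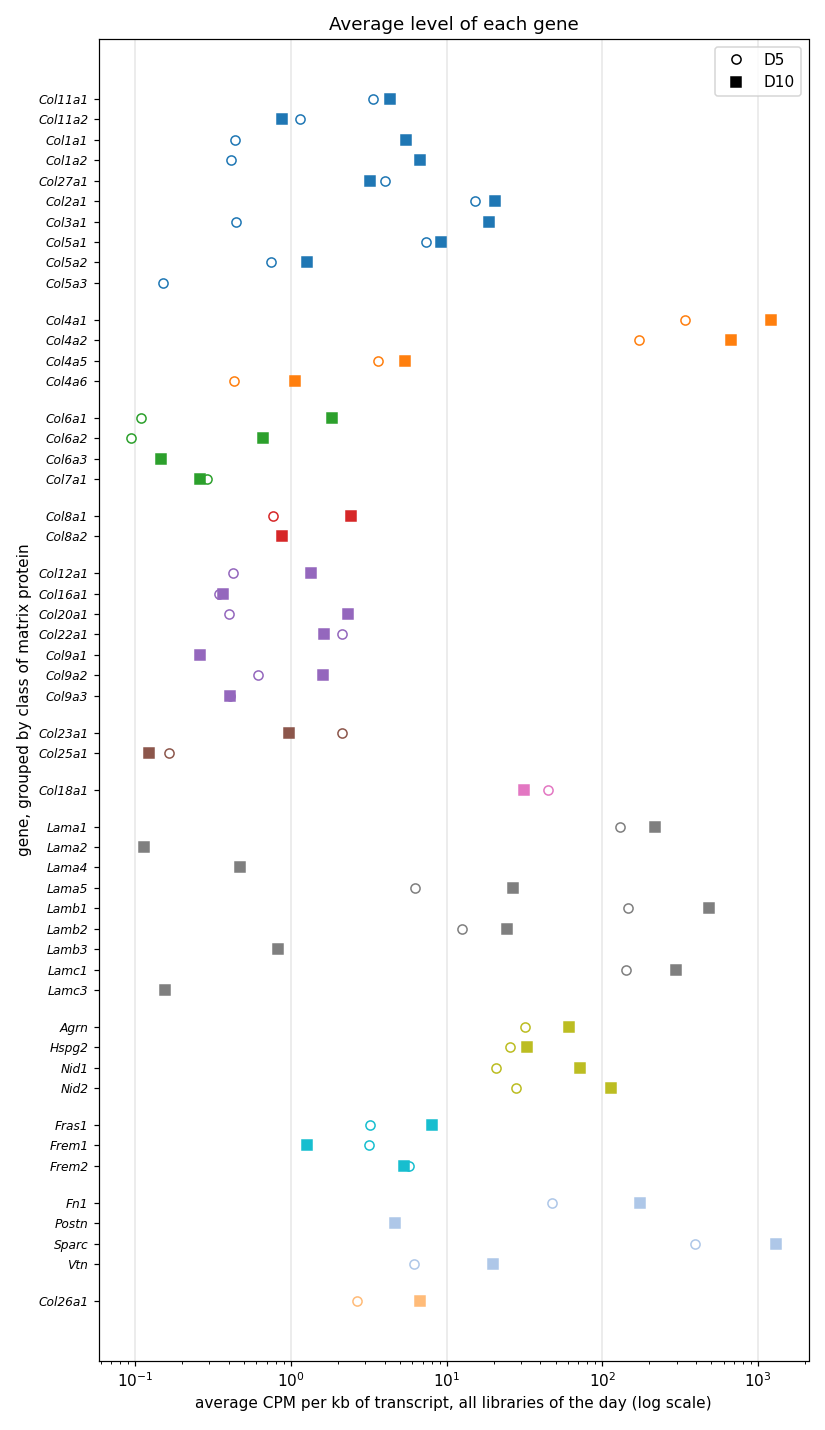
Average level of 51 of the 52 genes in CPM per kb of transcript (horizontal log axis), at D5 (open circles) and D10 (filled squares), with genes grouped by class of matrix protein in colour. Sparc, Col4a1, Col4a2, Lamb1, Lamc1 and Lama1 stand to the right of the other genes on both days, and no value per library or error is available.

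The comparison at D5 asks how matrix genes stood while GLI1 was induced. A few members of low or moderate level were many-fold higher in GLI1-induced cells, above all the adhesive glycoprotein gene Vtn and the Fraser complex gene Frem1, and the abundant genes Sparc, Nid1 and Nid2 fell, beside abundant laminin and collagen IV genes of like values that did not pass. Of the 44 members, 14 changed at an adjusted p under 0.05, against 4.44% of the D5 genes of the authors' deposited table. Of these, 9 rose and 5 fell, where 2.10% of all genes were called lower and 2.34% called higher. Without adjustment, 24 members had a p under 0.05 (10.7% of all genes did), with 10 higher (4.83% of all genes) and 14 lower (5.83% of all genes). The members' log2 fold changes had a median of -0.07 and 23 of 44 were below 0, against a median of 0.0015 and 49.5% below 0 over all genes. A gene counts as changed here where the false discovery rate given by the authors, computed over all genes of the day, is under 0.05.

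For each gene an implied standard error (SE) was computed by dividing the absolute log2 fold change by the absolute z that belongs to the p-value. The level in each group was derived from the average CPM and the fold change, taking both groups to weigh equally, and is approximate.

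Vtn (Entrez 22370) encodes vitronectin, an adhesive glycoprotein of matrix and plasma that binds integrins. Its derived level at D5 was 20.1 CPM in GLI1-induced cells and 1.43 CPM in control cells. The log2 fold change was 3.82 in the authors' deposited table (adjusted p = 2.40e-63, implied SE 0.22), a 14.1-fold higher level, the largest among the members.

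All 3 genes of the Fraser complex, a set of large proteins that anchor epithelial basement membranes to the tissue below, were higher at D5 (2.34% of all genes were). Frem1 (Entrez 329872) stood at 56.2 CPM in GLI1-induced cells and 5.36 CPM in control cells by derived level, and its log2 fold change was 3.39 in the authors' deposited table (adjusted p = 1.78e-71, implied SE 0.19). Frem2 (Entrez 242022) stood at 94.5 CPM in GLI1-induced cells and 46.7 CPM in control cells, with a log2 fold change of 1.02 in the authors' deposited table (adjusted p = 9.58e-19, implied SE 0.11). Fras1 (Entrez 231470) stood at 60.0 CPM in GLI1-induced cells and 41.5 CPM in control cells, with a log2 fold change of 0.53 in the authors' deposited table (adjusted p = 6.69e-06, implied SE 0.099). The 3 genes thus rose by unequal amounts, with Frem1 the lowest of the 3 in control cells by derived CPM.

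Among collagens that do not build fibrils by themselves, Col22a1 and Col18a1 rose. Col22a1 (Entrez 69700), a fibril-associated collagen with interrupted triple helices (FACIT) known from tissue junctions such as that of muscle and tendon, had derived levels of 31.4 CPM in GLI1-induced cells and 5.97 CPM in control cells. Its log2 fold change was 2.40 in the authors' deposited table (adjusted p = 2.49e-50, implied SE 0.16). Col18a1 (Entrez 12822), a basement membrane collagen with heparan sulfate chains whose end fragment is endostatin, had derived levels of 352 CPM in GLI1-induced cells and 149 CPM in control cells. Its log2 fold change was 1.24 in the authors' deposited table (adjusted p = 1.34e-28, implied SE 0.11), and it was the most abundant of the members that rose. Of the 6 measured FACIT genes, 2 rose (2.34% of all genes did). These were Col22a1 and Col9a2, a chain of collagen IX of cartilage and vitreous. Col9a2 stood at 0.98 (adjusted p = 0.0192) in the authors' deposited table. Col9a2 was low, with derived levels of 2.40 CPM in GLI1-induced cells and 1.22 CPM in control cells. Its average log2 CPM of 0.86 lay below the minimum level of 1 set in an alternative. Col12a1 (-0.98, adjusted p = 0.0616), Col20a1 (0.60, adjusted p = 0.390), Col9a3 (0.46) and Col16a1 (-0.016) did not pass in the authors' deposited table.

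Of the 10 fibrillar collagen genes in the D5 table, 2 rose (2.34% of all genes did) and 8 did not pass. An unadjusted p under 0.05 was found for 4 of the 10 (10.7% of all genes). The risers were Col5a2, a chain of the collagen that starts fibrils, at 0.75 (adjusted p = 0.00994, implied SE 0.21), and Col3a1, a collagen of stretchable tissues, at 1.55 (adjusted p = 0.0158, implied SE 0.45) in the authors' deposited table. Both were low, with derived levels of 6.24 CPM in GLI1-induced cells and 3.71 CPM in control cells for Col5a2, and 3.71 CPM in GLI1-induced cells and 1.26 CPM in control cells for Col3a1. Col1a2 at -0.65 (adjusted p = 0.210) and Col1a1 at -0.47 (adjusted p = 0.687), which form the collagen I of connective tissue with each other, did not pass in the authors' deposited table. Nor did Col2a1, the most abundant fibrillar gene at 80.2 CPM in GLI1-induced cells and 75.0 CPM in control cells by derived level. Col5a1, Col5a3, Col11a1, Col11a2 and Col27a1 also missed the threshold, with log2 fold changes from -0.33 to 0.42 in the authors' deposited table.

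The calls for Col5a2, Col3a1, Col9a2 and Col8a1 depend on the p-values as deposited. When z was rescaled within bins of genes of like level (5.10% of all genes called), their adjusted p ran from 0.0599 to 0.163.

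**Figure D2:**
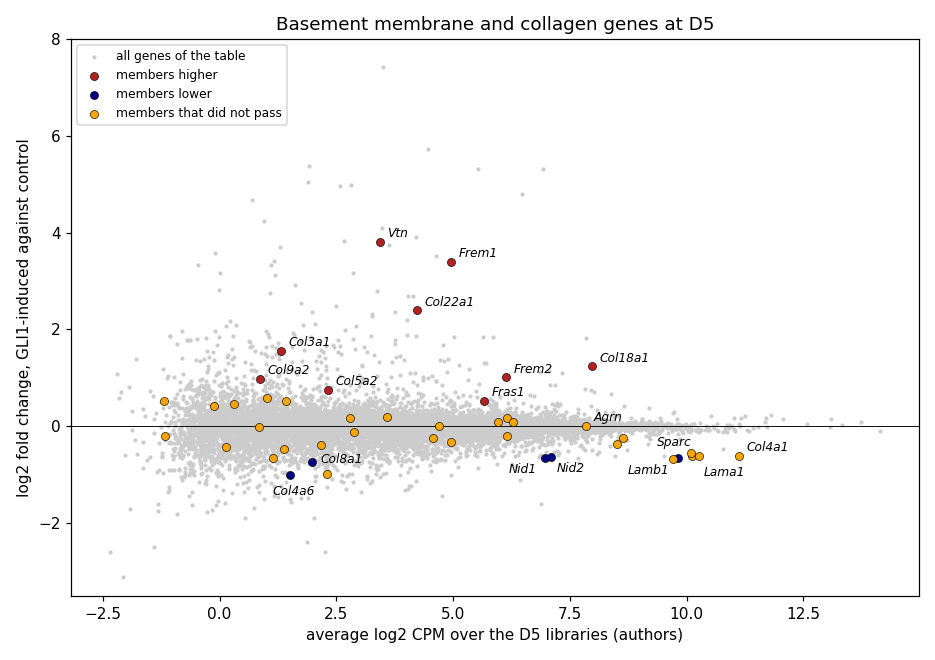
Log2 fold change at D5, GLI1-induced against control (vertical axis), against the authors' average log2 CPM (horizontal axis), for all 15108 genes of the table (grey) and the 44 members, coloured by whether they were higher, lower or did not pass at an adjusted p under 0.05. Vtn, Frem1 and Col22a1 stand highest among the members, and the abundant Col4a1, Lama1, Lamb1 and Sparc lie below 0.

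The most abundant members leaned the other way. The 16 members whose average log2 CPM reached 6 at D5 had a median log2 fold change of -0.45, with 11 below 0, against a median of 0.0026 and 48.4% below 0 over the 3643 genes of that level. Within them, 8 genes lay close together, between -0.67 and -0.54 in the authors' deposited table: Lama1, Lamb1, Lamc1, Col4a1, Col4a2, Nid1, Nid2 and Sparc. These 8 were picked after their values were seen and get no test as a group. Their summed derived level was 6067 CPM in GLI1-induced cells and 9271 CPM in control cells.

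Sparc, Nid1 and Nid2 passed on their own. Sparc (Entrez 20692), a calcium-binding matricellular protein that acts on collagen IV deposition, had derived levels of 702 CPM in GLI1-induced cells and 1112 CPM in control cells, and a log2 fold change of -0.66 in the authors' deposited table (adjusted p = 0.00112, implied SE 0.16). Nid1 (Entrez 18073) and Nid2 (Entrez 18074), the nidogens that link laminin to collagen IV, stood at -0.64 (adjusted p = 0.0105) and -0.63 (adjusted p = 0.0167) in the authors' deposited table. Their derived levels were 98.0 CPM in GLI1-induced cells and 153 CPM in control cells for Nid1, and 106 CPM in GLI1-induced cells and 165 CPM in control cells for Nid2.

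The other 5 had similar log2 fold changes in the authors' deposited table and missed the threshold: Lamb1 at -0.67 (adjusted p = 0.0508), Col4a2 at -0.60 (0.0714), Col4a1 at -0.60 (0.0664), Lama1 at -0.61 (0.125) and Lamc1 at -0.54 (0.196). Col4a1 stood at 1770 CPM in GLI1-induced cells and 2690 CPM in control cells, and Col4a2 at 880 CPM in GLI1-induced cells and 1338 CPM in control cells, by derived level. The implied SEs of the 8 genes were 1.44 to 2.09 times the median SE of their bin of genes sorted by level. For abundant genes that bin is wide: the bin of Col4a1, at an average of 2230 CPM, also holds Itgb1 at 328 CPM. All 5 that missed the threshold passed when z was rescaled within bins, with Fn1 as a further call in that alternative. Rescaling enlarged z at this level. Fn1 had an unadjusted p of 0.0899 in the authors' deposited table, and the adjusted p of Sparc went from 0.00112 to 2.21e-13. The alternative uses the same deposited p-values and is no separate evidence for these genes.

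The laminin chains did not all follow these values. Of the 6 measured at D5, 0 passed at the adjusted p of the authors' deposited table (4.44% of all genes did). An unadjusted p under 0.05 was found for 3 (Lama1, Lamb1 and Lamc1), against 10.7% of all genes. Lama5, the alpha chain of most later basement membranes, stood at -0.19 (adjusted p = 0.983), and Lamb2, the beta chain of synapses and kidney, at 0.17 (adjusted p = 0.795) in the authors' deposited table.

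Collagen IV has a second head-to-head pair on the X chromosome, Col4a5 and Col4a6, whose annotated start sites are 1343 bases apart. Col4a6 (Entrez 94216) stood at -1.003 on the log2 scale (adjusted p = 0.000867, implied SE 0.23) in the authors' deposited table and had derived levels of 1.91 CPM in GLI1-induced cells and 3.82 CPM in control cells. Its neighbour Col4a5 stood at -0.24 (adjusted p = 0.378, implied SE 0.11) in the authors' deposited table, with 21.8 CPM in GLI1-induced cells and 25.7 CPM in control cells by derived level. Values of the pair Col4a1 and Col4a2 differed by less than 0.01 on the log2 scale. The sources used here do not say whether counting used strand, and reads in the overlap of their annotated starts cannot be assigned with certainty. That overlap is 22 bases, in longest transcripts of 6615 bases for Col4a1 and 6450 bases for Col4a2.

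The heparan sulfate proteoglycans of the sheet did not pass: Agrn stood at 0.0081 and Hspg2 at -0.36 (adjusted p = 0.827) in the authors' deposited table. Agrn had 231 CPM in GLI1-induced cells and 230 CPM in control cells by derived level. Fn1, the fibronectin gene, stood at -0.23 (adjusted p = 0.648) in the authors' deposited table. Col8a1, a short-chain collagen of vessel and corneal basement membranes, fell to 2.94 CPM in GLI1-induced cells, against 4.88 CPM in control cells, with a log2 fold change of -0.73 in the authors' deposited table (adjusted p = 0.0260, implied SE 0.22). The remaining members of the D5 table (Col6a1, Col6a2, Col7a1, Col23a1, Col25a1 and Col26a1) did not pass, with log2 fold changes from -0.42 to 0.53 in the authors' deposited table. The genes Col6a3, Col8a2, Col9a1, Lama2, Lama4, Lamb3, Lamc3 and Postn are in the D10 table alone.

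**Figure D3:**
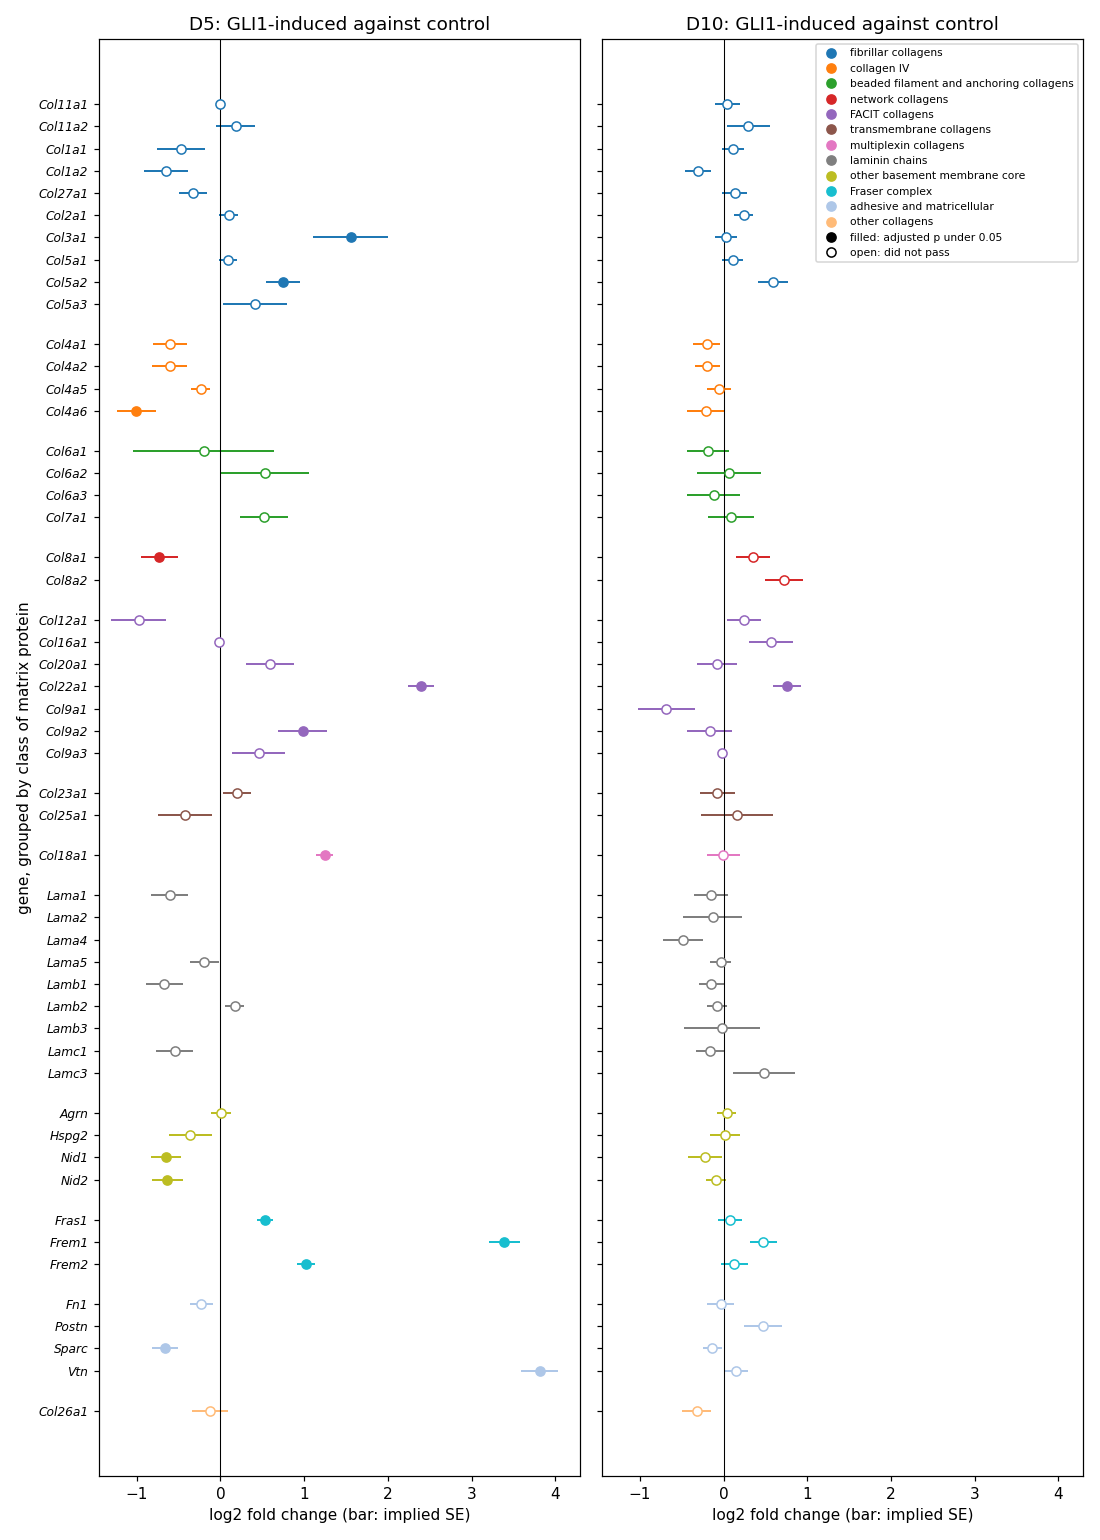
Log2 fold change of GLI1-induced against control cells for 51 of the 52 members, with D5 in the left panel and D10 in the right, on the same horizontal scale. Bars show the implied SE (absent where p is 1), filled points passed an adjusted p under 0.05, and genes are grouped by class in colour. At D5 the filled points run from -1.003 for Col4a6 to 3.82 for Vtn, while at D10 Col22a1 is the single filled point.

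Enzymes that build the matrix were read from a list of 32 genes, of which 28 are in the D5 table. Of these, 4 fell and 2 rose, 22 missed the threshold, and the median was -0.08 on the log2 scale. Over all genes at D5, 2.10% were called lower and 2.34% higher, and these shares apply to each list below. The genes that fell in the authors' deposited table act on collagen: the prolyl hydroxylase subunits P4ha1 at -0.66 and P4ha2 at -0.71, the lysyl hydroxylase Plod2 at -0.60 and the lysyl oxidase family member Loxl2 at -0.52. Higher in the authors' deposited table were the procollagen-trimming protease Adamts3 at 0.92 and Pcolce, an enhancer of procollagen trimming, at 0.93. P4ha1 had 158 CPM in GLI1-induced cells and 250 CPM in control cells by derived level, and Plod2 280 CPM in GLI1-induced cells and 425 CPM in control cells.

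Of 22 measured receptors for the matrix (integrins, syndecans and others), 1 rose and 1 fell, with a median of -0.11. These were the syndecans Sdc3 at 0.48 (adjusted p = 0.000709) and Sdc4 at -0.34 (adjusted p = 0.0469) in the authors' deposited table. Among 22 measured proteases and inhibitors, 3 rose and 1 fell. The protease inhibitor gene Timp3, whose protein is held in the matrix, stood at 1.12 (adjusted p = 2.40e-18), with Mmp17 at 0.79, Adamts20 at 0.60 and Adamts9, the gene that fell, at -0.83 in the authors' deposited table.

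Of 33 other matrix glycoproteins in the D5 table, 6 rose, 5 fell and 22 missed the threshold, and the median was 0.011. The largest value belonged to Smoc2, a Sparc relative, at 3.40 (adjusted p = 2.16e-19) in the authors' deposited table, with derived levels of 4.07 CPM in GLI1-induced cells and 0.385 CPM in control cells. The Sparc relative Sparcl1 at 1.26, Emilin1 at 0.82, Mfap4 at 0.61, Fbn2 at 0.49 and Thbs3 at 0.37 rose too in the authors' deposited table. Lower in the authors' deposited table were Tinagl1 at -0.80, the Sparc relatives Spock1 at -0.67 and Smoc1 at -0.39, Matn2 at -0.53 and Thbs1 at -0.33. Members of the wider Sparc family were thus found on both sides.

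Markers of other cell types moved at D5 as well. Of 19 endoderm markers, 16 are in the D5 table, of which 4 fell, 2 rose and 10 missed the threshold (2.10% of all genes fell and 2.34% rose). Of the 16, 12 were below 0 and 4 above, where 49.5% of all genes were below 0. In either direction, 13 of these markers had an unadjusted p under 0.05 (10.7% of all genes did). Their median was -0.45 on the log2 scale. The neuron and endothelium lists described below had medians of -0.39 each, and neural crest of -0.28. Medians were -0.06 for mesoderm and mesenchyme and 0.04 for neural progenitors. Gata4 at -0.78 (adjusted p = 0.00569), Gata6 at -0.67 (0.0167) and Dab2 at -0.57 (0.0287) were among those that fell in the authors' deposited table, and Sox17 at -0.65 (0.0597) did not pass. Foxa2 at 1.37, which the floor plate also expresses, and the apolipoprotein gene Apob at 0.60 were higher in the authors' deposited table. The summed derived level of the 16 markers was 921 CPM in GLI1-induced cells and 1195 CPM in control cells. Apoa1, Apoa2 and Thbd are not in the D5 table. The implied SEs of the 16 genes were 1.15 to 2.14 times the median of genes of like level. The part of endoderm cells in the lower values of Sparc, the nidogens and the collagen IV and laminin genes was not tested, and in bulk RNA fewer cells of a type and less RNA per cell cannot be told apart.

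In the mesoderm and mesenchyme list, 8 of 17 markers are in the D5 table, with 2 higher (Foxf1 at 4.24 and T at 1.85) and 1 lower (Pdgfra at -0.81) in the authors' deposited table. Their summed derived level was 231 CPM in GLI1-induced cells and 307 CPM in control cells. Among 5 measured endothelial markers, 1 fell (Sox7 at -0.63 in the authors' deposited table), with sums of 20.2 CPM in GLI1-induced cells and 27.6 CPM in control cells, and Pecam1, Tie1, Erg and Emcn are not in the table. Of 5 measured neural crest markers 0 passed at the adjusted p of the authors' deposited table and 1 had an unadjusted p under 0.05, with sums of 218 CPM in GLI1-induced cells and 249 CPM in control cells. Among 8 measured neural progenitor markers, 1 rose (Slc1a3 at 1.11 in the authors' deposited table), with sums of 1823 CPM in GLI1-induced cells and 1820 CPM in control cells. Of 9 neuron markers 5 fell (Nefm at -1.61, Nefl at -1.11, Gap43 at -0.70, Tubb3 at -0.41 and Stmn2 at -0.39 in the authors' deposited table), with sums of 793 CPM in GLI1-induced cells and 1091 CPM in control cells.

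**Figure D4:**
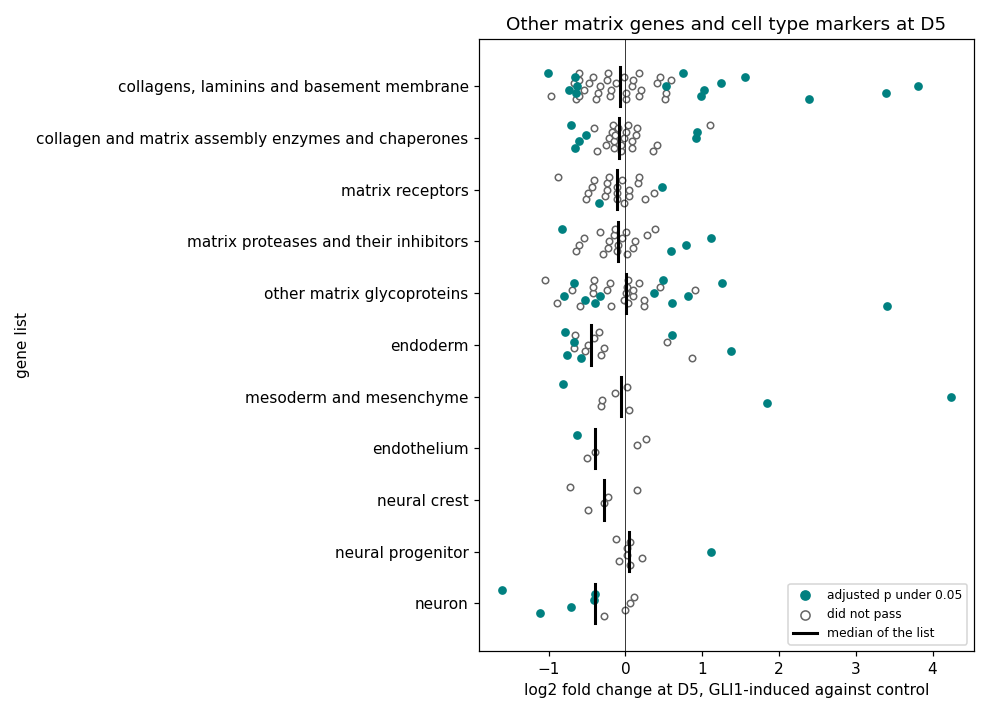
Log2 fold change at D5, GLI1-induced against control (horizontal axis), of the 44 members, of 4 lists of other matrix genes and of 6 lists of cell type markers (rows). Filled points passed an adjusted p under 0.05, open points did not, and the black bar is the list's median. The endoderm list has a median of -0.45 and the neuron and endothelium lists of -0.39 each, while the neural progenitor list has a median of 0.04.

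The comparison at D10 asks what remained 5 days after washout. The collagen gene Col22a1 was still higher in GLI1-induced cells, and no other collagen, laminin or basement membrane gene passed. Of 51 members, 1 rose and 0 fell, where the authors' deposited table for the day calls 0.0826% of all genes higher and 0.00% lower. Below 0 were 27 of 51 members, against 48.9% of all genes. The median log2 fold change was -0.017, against 0.0027 over all genes. At an unadjusted p under 0.05 stood 9 members, against 1.53% of all genes, with 7 higher (0.883% of all genes) and 2 lower (0.648% of all genes). These were Col22a1, Frem1, Col5a2, Col8a2, Col2a1, Col16a1 and Postn on the higher side, and Col9a1 and Lama4 on the lower side.

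Col22a1 had derived levels of 17.97 CPM in GLI1-induced cells and 10.6 CPM in control cells at D10. Its log2 fold change was 0.76 in the authors' deposited table (adjusted p = 0.00607, implied SE 0.16), and it missed the threshold with Holm's adjustment (0.0667). Next by p came Col5a2 at 0.59 (adjusted p = 0.599), Col8a2, the partner chain of Col8a1, at 0.72 (0.780) and Frem1 at 0.48 (unadjusted p = 0.00295) in the authors' deposited table. Col5a2, which was called at D5, had 10.1 CPM in GLI1-induced cells and 6.72 CPM in control cells by derived level. With z rescaled within bins, 6 members passed (0.769% of all genes did): Col22a1, Col5a2, Frem1, Col8a2 and Col2a1 upward and Col1a2 downward. Rescaling called 121 genes at D10, against 13 as deposited, and the unadjusted p of Col1a2 in the authors' deposited table was 0.0504. Periostin (Postn), a matricellular protein of mesenchyme, stood at 0.47 (unadjusted p = 0.0352) in the authors' deposited table. Most abundant in their classes and not called at D10 were also Col6a1 at -0.19, Col23a1 at -0.075 and Col26a1, a collagen of gonads, at -0.32 in the authors' deposited table.

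The 8 genes picked for their close values at D5 did not pass at D10. Values of Lama1, Lamb1, Lamc1, Col4a1, Col4a2, Nid1, Nid2 and Sparc ran from -0.22 to -0.09 in the authors' deposited table, with a summed derived level of 22046 CPM in GLI1-induced cells and 24883.5 CPM in control cells. Agrn at 0.036 and Hspg2 at 0.019, of like abundance to the nidogens, stood above 0 in the authors' deposited table. Col4a1 had 7451 CPM in GLI1-induced cells and 8569 CPM in control cells by derived level. Of 18 measured endoderm markers, 16 were below 0 (48.9% of all genes were) and 0 were called in the authors' deposited table. At an unadjusted p under 0.05 stood 0 of these markers as well (1.53% of all genes did). Their median was -0.10, with sums of 2027 CPM in GLI1-induced cells and 2125 CPM in control cells. All 5 measured endothelial markers were below 0 (median -0.22, 0 called and 0 at an unadjusted p under 0.05). All 8 neural progenitor markers were above 0 (median 0.20). These sign counts run across genes of the same libraries, which are not independent replicates, and were not tested. Medians were -0.01 for neural crest, 0.05 for mesoderm and mesenchyme and 0.04 for neurons. Of the 4 lists of other matrix genes, with 30, 24, 22 and 37 genes in the D10 table, the sole call was Thbs2, a matricellular thrombospondin, at 1.04 (adjusted p = 0.000658) in the authors' deposited table. Neural progenitor and neuron markers had 0 calls on that day in the authors' deposited table (1 and 0 at an unadjusted p under 0.05), with sums of 1419 CPM in GLI1-induced cells and 1291 CPM in control cells for progenitors, and 2439 CPM in GLI1-induced cells and 2389 CPM in control cells for neurons. Medians of the matrix lists lay between -0.08 and 0.014.

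The 2 days were compared through the difference of their log2 fold changes (D10 minus D5), tested with the implied SEs over the 14792 genes in both tables with Benjamini-Hochberg adjustment. Each day has its own libraries and controls. Of the 43 members in both, 6 differed at an adjusted p under 0.05, where 1.24% of all genes did. Of these 6, 5 had risen at D5 and were closer to 0 at D10. Vtn stood at 3.82 at D5 and 0.15 at D10 in the authors' deposited table (difference -3.66, SE 0.26, adjusted p = 1.24e-41), and Frem1 at 3.39 and 0.48 (difference -2.92, SE 0.25, adjusted p = 2.78e-29). Col22a1, at 2.40 at D5 and at D10 at 0.76 in the authors' deposited table, differed by -1.64 (adjusted p = 2.44e-10). Col18a1 differed by -1.25 (adjusted p = 7.81e-06) and stood in the authors' deposited table at -0.0011 at D10. Frem2, at 1.02 and 0.13 in the authors' deposited table, differed by -0.89 (adjusted p = 0.000562).

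Vtn was near its control level at D10 with both groups high: its derived levels were 36.6 CPM in GLI1-induced cells and 32.9 CPM in control cells, against 20.1 CPM in GLI1-induced cells and 1.43 CPM in control cells at D5. Frem1 stood at 14.2 CPM in GLI1-induced cells and 10.2 CPM in control cells at D10. The change of level within a group from day to day was not tested.

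Among the 6, Col8a1 was the one whose difference between days ran upward. It stood at -0.73 at D5 and 0.36 at D10 in the authors' deposited table (difference 1.09, SE 0.30, adjusted p = 0.0281). With the SE held to at least the median of genes of like level, its adjusted p was 0.0519. Col12a1, at -0.98 at D5 and 0.25 at D10 in the authors' deposited table, followed with a difference of 1.22 (adjusted p = 0.0987) and did not pass. For the 8 genes picked after their D5 values were seen, differences ran from 0.38 for Lamc1 to 0.54 for Nid2 and none passed, with Sparc at 0.53. The difference was 0.028 for Agrn and 0.38 for Hspg2. With z rescaled, Sparc, Lamb1, Fras1 and Nid2 passed as well, with adjusted values from 1.06e-05 to 0.0163.

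**Figure D5:**
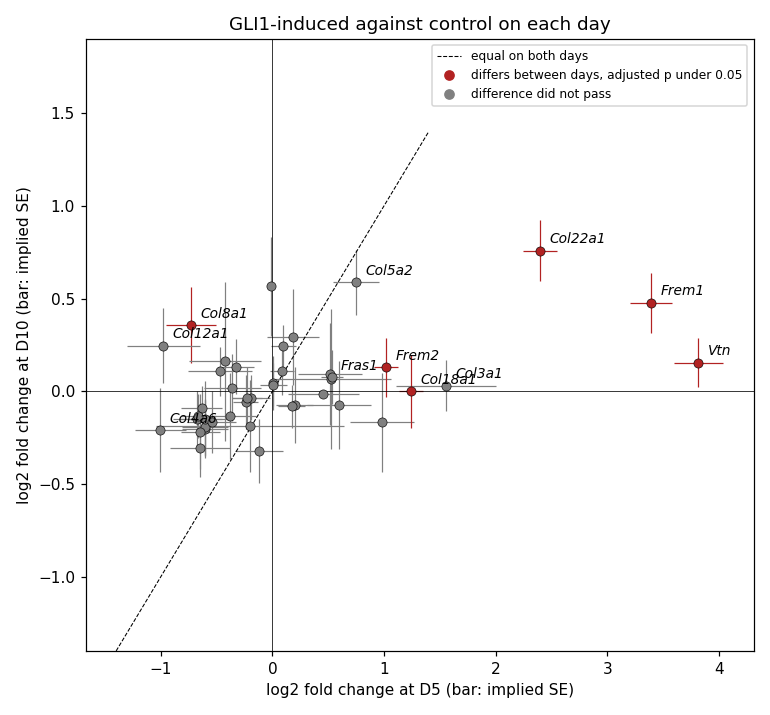
Log2 fold change of GLI1-induced against control cells at D5 (horizontal) and D10 (vertical) for the 43 members in both tables, with implied SEs as bars and the line of equal values dashed (the axes differ in scale). Red points differ between the days at an adjusted p under 0.05. Vtn, Frem1, Col22a1, Col18a1 and Frem2 lie below the dashed line and Col8a1 above it.

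Across the 43 members, 30 had the same sign on both days (69.8%, against 58.7% of all 14792 genes) and 36 were closer to 0 at D10 (83.7%, against 61.0%). These shares are descriptions across genes, which are not independent replicates.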

How the data were processed

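RNA of 14 samples in 4 groups was prepared with a TruSeq RNA v2 kit and read from a single end of 50 bases, per the labels' protocols. No source used here names the aligner, counter, statistical test or build. The authors deposited, per Entrez gene and day, a log2 fold change, an average log2 CPM, a p-value and an adjusted p-value; base 2 of the log2 CPM was checked by its sum (1001543 at D5, 1001340 at D10), and the fold change was taken to share it. The deposited adjusted p-values equal a Benjamini-Hochberg adjustment within 3.41e-05.

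Symbols came from RefSeq (GRCm38.p6) and matched 94.6% of identifiers. A signed z, an implied SE and group levels were computed from the deposited values, which inherit every assumption of the authors' test. Genes without a finite implied SE entered the comparison of days as no difference. The comparison of days uses a normal reference and is approximate. It was run on simulated data drawn from a normal with the implied SEs themselves. Such data cannot show whether the implied SEs or the normal reference suit the deposited values. Python 3.11.15, scipy 1.17.1 and pandas 2.3.3 were used.

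The members, lists and alternatives were chosen with earlier results of these data known. Named are all called members, the most abundant member per class and the 5 with the smallest p among those not called on each day, all members given by name, and every called gene of the other lists; further members were named after their values were seen. The values of 1 member and 1 marker are not reported here. The labels call the reads stranded and do not say how strand was used. No member shares its values with another row (within 1e-05 in log2 CPM and 0.001 in log2 fold change). For rescaling, genes were sorted by level and taken about 500 at a time, and z was divided by the factor that sets its median size in that bin to that of a standard normal. Further alternatives were other thresholds, a 2-fold minimum, Holm's adjustment and a minimum level.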

Additional observations from a re-analysis of the deposited data

Results flagged for a closer look

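For 6 members the fold changes of the 2 days differed when their difference itself was tested. The adjusted p of the difference was 1.24e-41 for Vtn, 2.78e-29 for Frem1, 2.44e-10 for Col22a1, 7.81e-06 for Col18a1, 0.000562 for Frem2 and 0.0281 for Col8a1. The first 5 were higher in GLI1-induced cells at D5 and closer to control at D10, while Col8a1 was lower at D5 and stood above 0 at D10 without passing there. What lies behind these differences was not tested. With no values per library, no sample could be checked for standing apart from its group.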

How the results depend on the processing

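Of the 14 members changed at D5, 9 passed an adjusted p under 0.01 (2.87% of all genes), 7 a 2-fold minimum (1.65%) and 6 Holm's adjustment (1.60%). The 5 lower members became 2 under 0.01 (1.09% of all genes were lower), 9 under 0.1 (2.68%), 1 with the 2-fold minimum (0.45%), 0 with Holm's adjustment (0.41%, with 14 lower members at an unadjusted p under 0.05) and 10 with rescaled z (2.54%). The 9 higher members ranged from 6 to 9, and the share of all genes called higher from 1.19% to 2.63%. At D10 the single member was lost with the 2-fold minimum (0 members, 0.0381% of all genes) and with Holm's adjustment (0 members, 0.0635%), where 9 had an unadjusted p under 0.05. Rescaled z gave 6 there (0.769%), with 5 higher (0.508%) and 1 lower (0.26%). Between days, rescaled z gave 10 members in place of 6 (2.43% of all genes), and the other alternatives 4 to 8 (0.602% to 1.5%). The members' mean at D5 was 0.17, of opposite sign to their median of -0.07. Counting repeated rows once or leaving out genes of low level moved no count by more than 1 member. For single values, a call was kept in 110 of 140 alternatives and lost in 30, and a value not called gained a call in 15 of 201. This tally is no measure of stability, because part of it was fixed in advance. A call cannot be lost at a threshold of 0.1. A value not called cannot gain a call at 0.01, with the 2-fold minimum or with Holm's adjustment. The members tallied were also chosen by their adjusted p. These alternatives cannot turn the sign of a deposited fold change. No paired analysis was possible because the deposited files hold no values per library, and leaving out replicates could not be run for the same reason. Depth per library is unknown, so no limit on low genes can be given.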
